A study of Mus musculus with 23 samples.

Results

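The genes described here are 10 mouse heat shock chaperone genes, *Hspa1a*, *Hspa1b*, *Hspa8*, *Hspa5*, *Hsp90aa1*, *Hsp90ab1*, *Dnajb1*, *Hsph1*, *Hspb1* and *Bag3*. They were found by symbol among the 18876 genes of the deposited count table. Each symbol matched 1 gene, and all 10 were among the 18759 genes tested, those with at least 5 counts in at least 3 libraries. The data are bulk RNA-seq of cells taken from the hippocampus of female mice with magnetic beads against CD11b, an integrin chain found on microglia and on blood-borne myeloid cells. Every mouse, controls included, was Slc11a2 fl/fl;Cx3cr1Cre-ERT2+/-, so that tamoxifen can remove a floxed part of *Slc11a2*, the gene of the iron transporter DMT1, in cells that express *Cx3cr1*, which include microglia and other macrophages. The KD mice were gavaged with tamoxifen, 4 mg a day for 5 days, when they were 5 to 6 months old, and the Control mice with corn oil alone, so tamoxifen and knockdown cannot be told apart. Mice were WT or carried *APP/PS1*, transgenes for mutant human amyloid precursor protein and presenilin 1 that lead to amyloid plaques, and all were collected at 15 to 18 months. The libraries used were 6 Control WT, 6 Control *APP/PS1*, 5 KD WT and 5 KD *APP/PS1*, without Control *APP/PS1* 0010. The study left out 1 outlier, which was taken to be 0010 because its heat map lacks that library, and the labels do not say so.

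The total count of a library lay between 31128643 and 54872491. Levels are given as CPM, the counts of a gene scaled to a common library total, with TMM scaling to correct for differences in composition. The library numbers in the sample names were 5 to 17 in Control and 1 to 4 or 18 to 23 in KD, and the labels do not say whether these runs were batches. *Slc11a2* itself, counted over the whole gene with its exons outside the floxed part, was 34.2 ± 4.75 CPM (SD, n = 5) in KD WT and 35.1 ± 5.13 CPM (n = 6) in Control WT. It was 56.5 ± 13.5 CPM (n = 5) in KD *APP/PS1* and 43.2 ± 3.93 CPM (n = 6) in Control *APP/PS1*. The gene total was thus not lower in the libraries labelled KD (edgeR's quasi-likelihood test, adjusted p = 1.00 in WT and 0.205 in *APP/PS1*), and since it holds exons that are not deleted it does not check the label. The summed level of 10 microglia markers was between 36350 and 55346 CPM in the 22 libraries. Markers of choroid plexus epithelium, a tissue beside the hippocampus that CD11b beads should not bind, summed to between 90.2 and 801 CPM in libraries 18 to 23, to 1977 and 1019 CPM in Control WT 0012 and 0015, and to 51.8 CPM or less in the other libraries. In bulk RNA, fewer cells of a type and less RNA per cell cannot be told apart.

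Chaperones bind unfolded or misfolded proteins and keep them from clumping until they fold or are handed on for degradation. HSP70 proteins bind and release clients with cycles of ATP use that a J-domain partner starts and a nucleotide exchange factor ends, and HSP90 proteins mature clients such as kinases and steroid receptors. Some family members are made at all times, while others are switched on when heat, oxidants or other stress frees the transcription factor HSF1 to bind heat shock elements, arrays of the unit GAA in alternating orientation. The endoplasmic reticulum (ER) has its own HSP70, BiP, the product of *Hspa5*, whose gene is switched on by the unfolded protein response. In microglia, which engulf debris and amyloid, chaperones are studied as a sign of proteotoxic stress, and stress genes of this kind are also known to respond to the handling of tissue.

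The DNA before the start of a gene shows which of these switches its letters match. The 250 bases before the start of the canonical transcript were read from GRCm39 with GENCODE M39 for all 10 genes and for 21757 protein-coding genes in all. A minimal heat shock element of 2 units, GAANNTTC or TTCNNGAA, each of which reads the same on both strands, was found in 12.3% of all these windows and in 4 of the 10, those of *Hspa1a*, *Hspa1b*, *Hsph1* and *Hspb1*. The longer form of 3 units, GAANNTTCNNGAA or its reverse complement, which contains the shorter one, was in 0.349% of all windows and in 0 of the 10. The ER stress response element, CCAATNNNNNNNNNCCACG on either strand, was in 0.115% of all windows and in 1 of the 10, that of *Hspa5*. The windows of the 2 near-identical *Hspa1* genes, of *Hsph1* and of *Hspa5* are shown as those of genes that have a match and also differ in a comparison below, and that of *Hspa8*, which has no match, because its difference between genotypes had the smallest p-values. Capitals mark the fixed letters of a match, and each is written 5′ to 3′ on the strand of its gene.
Hspa1a, chr17:35191133-35191382, minus strand: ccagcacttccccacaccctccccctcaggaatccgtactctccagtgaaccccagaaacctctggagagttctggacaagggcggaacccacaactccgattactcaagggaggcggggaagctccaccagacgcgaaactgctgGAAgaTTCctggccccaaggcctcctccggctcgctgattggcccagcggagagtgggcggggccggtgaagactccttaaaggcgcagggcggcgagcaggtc
Hspa1b, chr17:35178215-35178464, minus strand: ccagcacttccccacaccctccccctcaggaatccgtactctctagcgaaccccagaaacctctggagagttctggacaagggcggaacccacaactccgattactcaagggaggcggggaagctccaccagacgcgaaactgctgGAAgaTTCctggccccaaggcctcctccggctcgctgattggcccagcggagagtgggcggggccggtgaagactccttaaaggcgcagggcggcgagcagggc
Hsph1, chr5:149559807-149560056, minus strand: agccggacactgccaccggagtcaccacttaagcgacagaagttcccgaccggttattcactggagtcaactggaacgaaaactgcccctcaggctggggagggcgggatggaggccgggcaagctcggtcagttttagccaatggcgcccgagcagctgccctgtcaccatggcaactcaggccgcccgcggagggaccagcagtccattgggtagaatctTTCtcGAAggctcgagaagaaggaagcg
Hspa5, chr2:34661854-34662103, plus strand: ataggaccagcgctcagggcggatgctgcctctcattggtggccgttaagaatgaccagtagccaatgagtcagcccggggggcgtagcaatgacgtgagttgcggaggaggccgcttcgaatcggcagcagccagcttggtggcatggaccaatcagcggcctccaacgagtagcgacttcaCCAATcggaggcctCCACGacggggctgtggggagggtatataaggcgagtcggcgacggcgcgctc
Hspa8, chr9:40712030-40712279, plus strand: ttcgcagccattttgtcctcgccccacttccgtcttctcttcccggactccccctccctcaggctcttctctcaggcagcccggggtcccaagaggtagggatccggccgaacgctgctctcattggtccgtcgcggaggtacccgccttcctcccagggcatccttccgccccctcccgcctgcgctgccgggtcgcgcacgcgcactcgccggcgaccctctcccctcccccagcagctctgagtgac
The match lay 104 to 97 bases before the start of both *Hspa1a* and *Hspa1b*, 28 to 21 bases before that of *Hsph1*, and 67 to 49 bases before that of *Hspa5*. *Hspb1* had 2 matches, at 104 to 97 and at 84 to 77 bases. No match says only that these exact letters are not in this window, so nothing follows from it for *Hspa8*, *Hsp90aa1*, *Hsp90ab1*, *Dnajb1* or *Bag3*.

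*Hspa1a* (ENSMUSG00000091971, chr17:35188166-35191132, minus strand) and *Hspa1b* (ENSMUSG00000090877, chr17:35175412-35178214, minus strand) each have 1 exon and encode the stress-inducible HSP70. Their coding sequences were 99.43% identical, their windows before the start 98.8% and their whole transcripts 84.38%. Of all stretches of 150 bases, the length of 1 read, 38.1% of those in *Hspa1a* were also found without a mismatch in *Hspa1b*, and 40.5% of those in *Hspa1b* in *Hspa1a*. Read pairs that lie wholly in shared stretches cannot be assigned to 1 gene, and a counter of uniquely mapped reads leaves them out. Each gene's level can thus be a low estimate, and the division between them is uncertain. The libraries were read as paired ends, and a read whose mate lies in differing sequence can still be placed. The shares of single stretches can therefore overstate the loss. *Hspa1a* held 56.4% to 85.1% of the summed CPM of the pair in the 22 libraries, with a median of 66.9%. Exons of *Hspa1a* and of 5 other members overlap a gene on the opposite strand, the longest being *Hspa5* with *Rabepk* over 1324 bases, *Bag3* with *4921520J07Rik* over 486, *Hspa1a* with *Gm20481* over 377 and *Hsp90ab1* with *Slc35b2* over 197. Whether counting used strand is not given in the sources used here, so reads of such a partner cannot be told apart.

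The members made at all times were the most abundant. Per kilobase of the canonical transcript, *Hspa8*, the HSP70 made in every cell, had a mean level of 454.0 CPM per kb over the 22 libraries. *Hsp90ab1*, the constitutive cytosolic HSP90, followed with 161 and *Hspa5* with 118 CPM per kb. *Hsp90aa1*, the inducible cytosolic HSP90, had 63.4 and *Dnajb1*, the J-domain protein that delivers clients to HSP70, 34.2 CPM per kb. *Hspa1a* was at 15.2 CPM per kb and *Hspa1b* at 8.06, with *Bag3*, a nucleotide exchange factor that directs HSP70 clients to autophagy, between them at 9.05. *Hspb1*, the small heat shock protein HSP27, was at 4.00 and *Hsph1*, the nucleotide exchange factor HSP110, at 2.44 CPM per kb. The first 5 places kept their order against the next gene in 19 to 22 of 22 libraries, whereas *Hspa1a* was above *Bag3* in 14, *Bag3* above *Hspa1b* in 16, *Hspa1b* above *Hspb1* in 14 and *Hspb1* above *Hsph1* in 16, so neighbours among the lower 5 genes were not separated beyond their spread. Divided by the length of all annotated exons in place of the canonical transcript, *Hspa5* (105 CPM per kb) ranked above *Hsp90ab1* (80.8 CPM per kb).

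The genes also differed in how much they varied between mice of one group. The SD of log2 CPM within groups was 1.39 for *Hspa1a* and 1.55 for *Hspa1b*, at the 96.4th and 97.6th percentile of 11888 genes with a mean of at least 1 CPM, whose median SD was 0.369. It was 0.767 for *Hsp90aa1*, 0.711 for *Hspb1*, 0.569 for *Hsph1*, 0.565 for *Bag3* and 0.533 for *Dnajb1*. *Hspa8*, with 0.181 at the 11.7th percentile, was the steadiest of the 10, followed by *Hspa5* with 0.273 and *Hsp90ab1* with 0.300. A difference of a given size between groups is therefore far easier to detect in *Hspa8* than in *Hspa1a*.

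**Figure D1:**
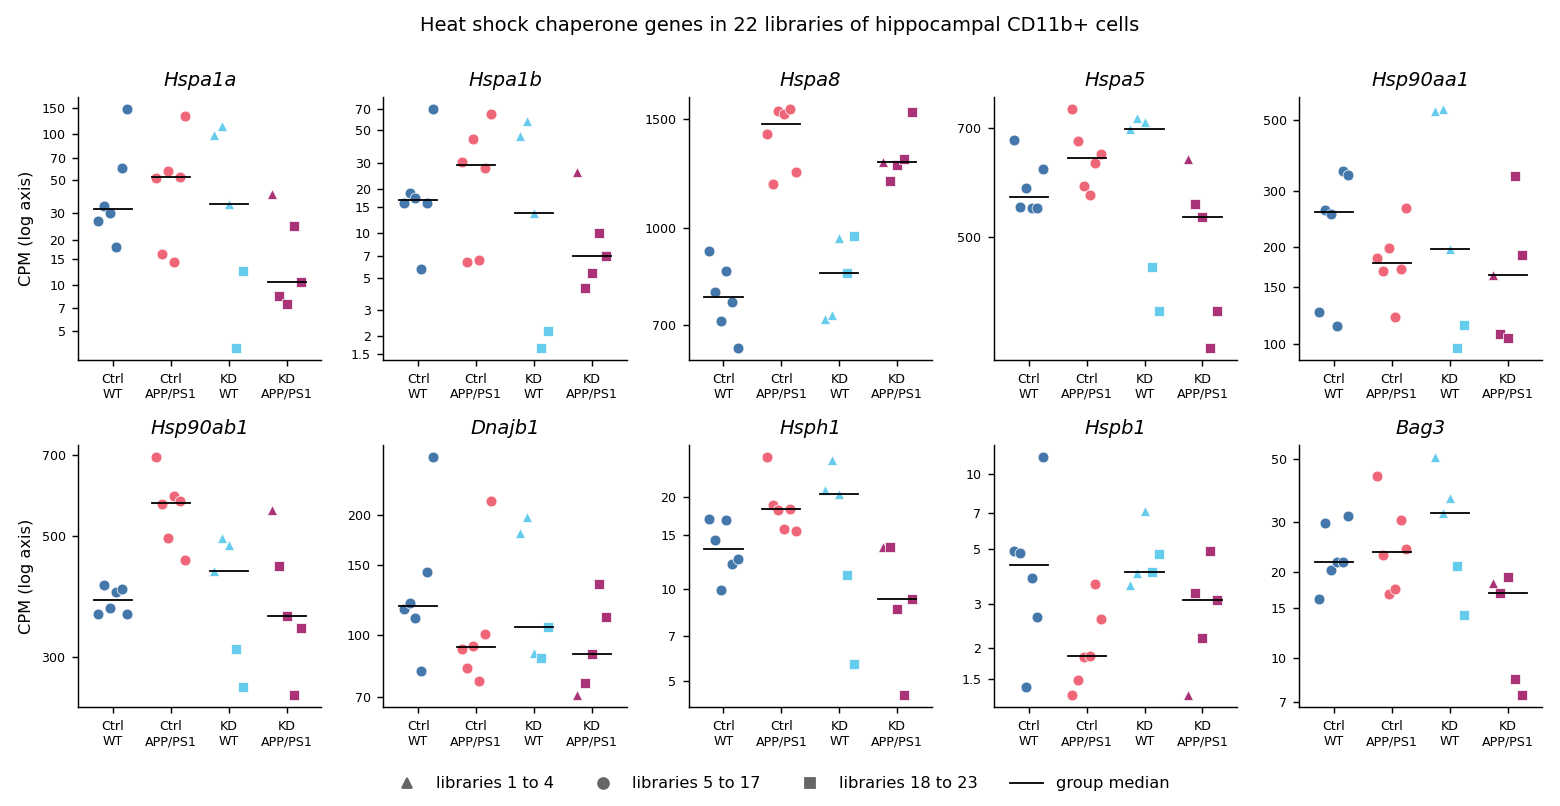
Each point is the level of 1 gene in 1 library, in CPM on a log axis, with Control and KD libraries of both genotypes side by side, triangles for libraries 1 to 4, circles for 5 to 17, squares for 18 to 23 and black lines for group medians. *Hspa8* is higher in all *APP/PS1* libraries than in all WT libraries, while *Hspa1a* spans 3.83 to 147 CPM with its lowest points among the squares.

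Among the inducible genes, *Hsp90aa1* was at 113, 258 and 346 CPM in the lowest, median and highest Control WT library and at 121, 178 and 264 CPM in Control *APP/PS1*. It was at 531, 539, 198, 97.2 and 115 CPM in KD WT 0001, 0002, 0003, 0019 and 0022, and at 164, 108, 104, 333 and 189 CPM in KD *APP/PS1* 0004, 0018, 0020, 0021 and 0023. All 4 groups overlapped, and KD WT held both the highest and the lowest value. *Dnajb1* was at 81.4, 118 and 279 CPM in Control WT and at 76.8, 93.2 and 217 CPM in Control *APP/PS1*. In the KD libraries, in the order just given, it was at 180, 197, 90.4, 87.6 and 105 CPM in WT and at 70.7, 75.8, 89.9, 134 and 111 CPM in *APP/PS1*. The groups overlapped here as well. *Hspb1* in the KD libraries was at 3.59, 4.02, 7.13, 4.05 and 4.803 CPM in WT and at 1.29, 3.33, 2.21, 4.92 and 3.12 CPM in *APP/PS1*, so this gene was low throughout.

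Control *APP/PS1* was compared with Control WT to see what the amyloid genotype alone does in oil-treated mice. Of the 10 genes, 2 were higher in *APP/PS1*, *Hspa8* and *Hsp90ab1*, and 0 were lower (edgeR's quasi-likelihood test, Benjamini-Hochberg adjustment over all genes). Over all genes tested 5.99% were called higher and 4.48% lower. The 2 genes called encode the constitutive HSP70 and the constitutive cytosolic HSP90. *Hspa5*, with a log2 fold change of 0.13 ± 0.15, and the inducible genes were not called. Whether constitutive and inducible genes differ as classes was not tested. *Hspa8* was at 642 CPM in the lowest, 775 at the median and 919 in the highest Control WT library, and at 1178, 1472 and 1554 CPM in Control *APP/PS1*. Every *APP/PS1* library was above every WT library. The log2 fold change was 0.85 ± 0.11 (SE), or 1.81-fold, with an adjusted p of 8.99e-06. *Hsp90ab1* was at 360, 382 and 406 CPM in Control WT and at 451, 573 and 696 CPM in Control *APP/PS1*, again with no overlap. Its log2 fold change was 0.56 ± 0.16, with an adjusted p of 0.0268. The groups did not overlap for 2 of the 10 genes and for 8.36% of all genes.

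*Hspb1* was at 1.40, 4.32 and 11.8 CPM in Control WT and at 1.30, 1.86 and 3.64 CPM in Control *APP/PS1*. The groups overlapped, and the difference of -1.20 ± 0.41 in log2 did not pass (adjusted p = 0.0629). It passed without Control WT 0009 (-1.39, 0.0231), without Control WT 0014 (-1.33, 0.0436), without Control *APP/PS1* 0016 (-1.42, 0.0388), with 0010 kept (-1.20, 0.0426), with at least 10 counts in every sample (-1.25, 0.0367), with the run 18 to 23 as a covariate (-1.20, 0.0499) and with DESeq2 (-1.24, 0.0230). Its highest value came from Control WT 0015, 1 of the 2 Control libraries rich in choroid plexus transcripts, and without 0012 and 0015 the log2 fold change was -0.70 (adjusted p = 0.340). Whether RNA of other cells accounts for part of it was not tested. The 7 other genes had adjusted p-values from 0.362 for *Hsph1* to 0.988 for *Hspa1a*, whose log2 fold change of 0.03 ± 0.67 had a 95% interval from -1.27 to 1.34. The call of *Hsp90ab1* was lost when any of 5 libraries was left out, with adjusted p-values of 0.0730 without Control *APP/PS1* 0005, 0.0545 without Control WT 0006, 0.0524 without Control WT 0009, 0.0525 without Control *APP/PS1* 0013 and 0.0552 without Control WT 0015, without 0012 and 0015 together (0.0943) and with 0010 kept (0.141), while its log2 fold change stayed between 0.44 and 0.61. That of *Hspa8* held in each of these fits, with a log2 fold change of 0.83 without 0012 and 0015.

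Markers of several cell types were also lower in Control *APP/PS1* than in Control WT. Of 10 microglia markers 4 were lower and 0 higher (summed level 36350 to 41547 against 46241 to 53439 CPM). Of 6 border macrophage markers 4 were lower (80.9 to 172 against 186 to 368 CPM), and of 10 choroid plexus markers 8 were lower. The choroid plexus sums overlapped, at 1.30 to 5.41 CPM in Control *APP/PS1* and 1.09 to 5.34 CPM in 4 of the 6 Control WT libraries, and only Control WT 0012 and 0015 lay above, at 1977 and 1019 CPM. *Clic6*, *Kcnj13* and *Sostdc1* were at 0 in all 6 Control *APP/PS1* libraries, and 7 to 9 of the 10 markers were at 0 in each of those 4 Control WT libraries. Of 7 endothelial markers 5 were lower and 1 higher (105 to 147 against 171 to 379 CPM), of 8 granulocyte markers 5 were lower (19.997 to 95.5 against 88.2 to 330.0 CPM) and of 7 oligodendrocyte markers 4 were lower (365 to 977 against 738 to 2806 CPM). Of 7 neuron markers tested 2 were lower, of 9 lymphocyte markers 1 was lower, and of 7 astrocyte markers 1 was higher. In the KD mice 6 of 10 microglia, 3 of 6 border macrophage, 4 of 7 endothelial, 2 of 8 granulocyte and 2 of 7 oligodendrocyte markers were lower in *APP/PS1*. There 1 of 7 astrocyte markers was higher, and 0 of 10 choroid plexus markers were called. Over the 22 libraries *Hspa8* had r = -0.855 with the microglia and -0.742 with the endothelial markers, and -0.21 and -0.122 within groups. *Hspb1* had r = 0.68 with the oligodendrocyte and 0.641 with the endothelial markers, and 0.458 and 0.469 within groups. With the microglia markers, r within groups was 0.688 for *Hspa5*, 0.685 for *Hsp90ab1*, 0.635 for *Hsph1* and 0.459 for *Bag3*. For the other genes it ran from -0.452 for *Hspb1* to 0.272 for *Hspa1b*. With the astrocyte markers it was -0.677 for *Dnajb1* and -0.643 for *Hsp90aa1*, and from -0.457 for *Hspa1a* to 0.297 for *Hsp90ab1* among the rest. The part of these cell types in the differences of *Hspa8*, *Hsp90ab1*, *Hspb1*, *Bag3* and the other genes was not tested.

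The same genotypes were compared within the KD mice. *Hspa8* was again higher in *APP/PS1* and *Bag3* was lower, so 1 gene was called in each direction, against 9.77% of all genes called higher and 6.41% lower. In KD WT, *Hspa8* was at 714, 726, 965, 847 and 972 CPM in libraries 0001, 0002, 0003, 0019 and 0022. In KD *APP/PS1* it was at 1277, 1191, 1262, 1291 and 1539 CPM in 0004, 0018, 0020, 0021 and 0023. Every *APP/PS1* library was again above every WT library, which was the case for 1 of the 10 genes and 7.06% of all genes. The log2 fold change was 0.63 ± 0.12, or 1.55-fold, with an adjusted p of 0.000982. Across all 22 libraries, *Hspa8* ran from 642 to 972 CPM in the 11 WT and from 1178 to 1554 CPM in the 11 *APP/PS1* libraries.

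*Bag3* in KD WT was at 50.9, 32.4 and 36.3 CPM in libraries 0001 to 0003 and at 21.05 and 14.2 CPM in 0019 and 0022. In KD *APP/PS1* it was at 18.3 CPM in 0004, and at 16.9, 19.3, 8.44 and 7.39 CPM in 0018, 0020, 0021 and 0023. The groups overlapped, since 0022 lay below 3 of the *APP/PS1* libraries. The log2 fold change was -1.14 ± 0.32 (adjusted p = 0.0186). KD WT holds 3 of its 5 libraries in the run 1 to 4 and KD *APP/PS1* only 1, and with the run 18 to 23 as a covariate the log2 fold change of *Bag3* was -0.68 (adjusted p = 0.211) while that of *Hspa8* was 0.59 (0.00284). The call of *Bag3* was also lost without KD WT 0001 (0.0774), without KD *APP/PS1* 0021 (0.0602) and without KD *APP/PS1* 0023 (0.0554). *Hsph1*, with a log2 fold change of -0.77 ± 0.32 (adjusted p = 0.0991), passed without KD *APP/PS1* 0004 (0.0499) and without KD WT 0022 (0.0108). *Hsp90ab1*, higher in *APP/PS1* among the Control mice, had a log2 fold change of -0.02 ± 0.18 here.

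**Figure D2:**
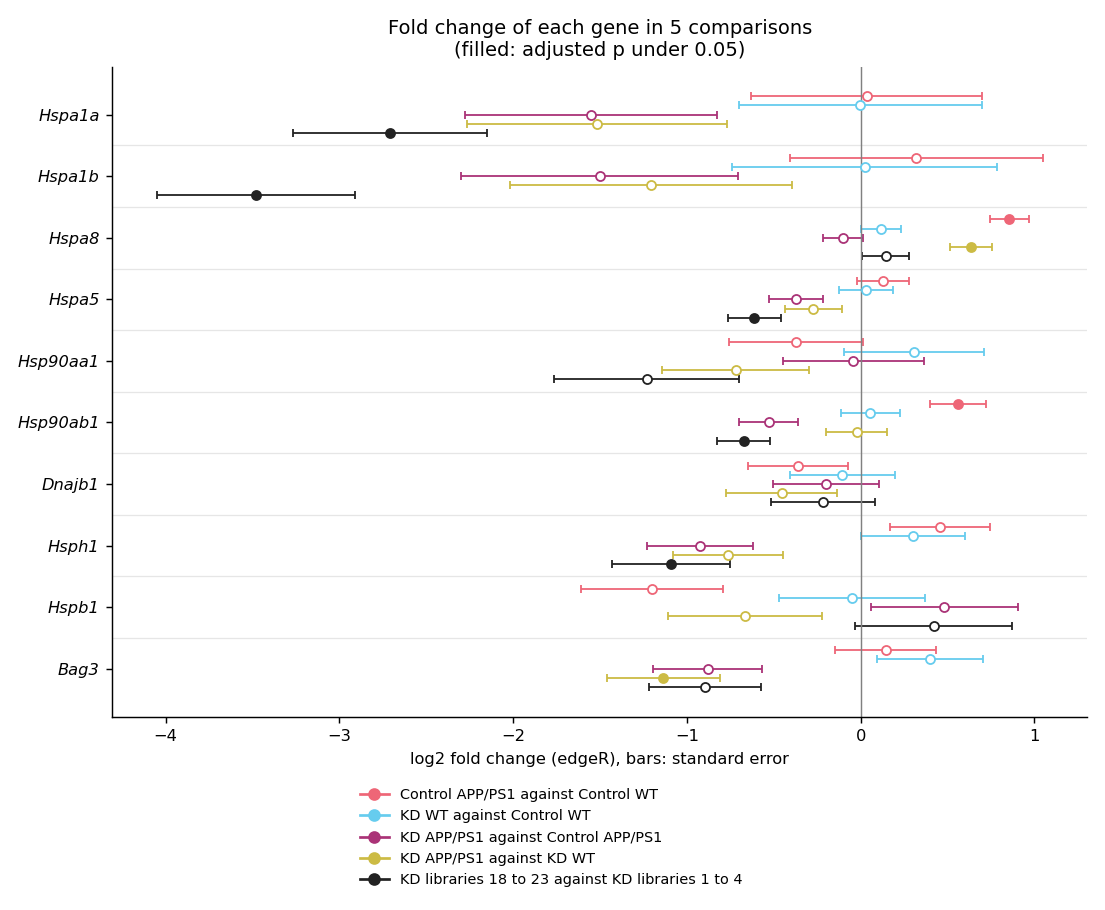
Points give the log2 fold change of each gene (horizontal axis, edgeR) and bars its standard error in 5 comparisons, told apart by colour, with filled points where the adjusted p was under 0.05. *Hspa8* is filled in both genotype comparisons, and 5 genes are filled, all to the left, in the comparison of KD libraries 18 to 23 with 1 to 4.

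Knockdown within WT was the question of the comparison of KD WT with Control WT. None of the 10 genes passed the test, and 0 passed at an unadjusted p under 0.05, against 5.92% of all genes. With edgeR 0% of all genes were called and 0 of the 10, and DESeq2 called 10 genes, 0 of them among the 10. The log2 fold changes ran from -0.11 ± 0.30 for *Dnajb1* to 0.40 ± 0.31 for *Bag3*. For *Hspa8* the 95% interval of the log2 fold change was -0.11 to 0.34 and for *Hspa5* -0.28 to 0.34, so that a change of the size *Hspa8* showed with genotype lies outside both. The intervals were wider for *Hspa1a* (-1.37 to 1.37), *Hspa1b* (-1.48 to 1.52), *Hsp90aa1* (-0.49 to 1.10), *Bag3* (-0.20 to 1.00) and *Hsph1* (-0.29 to 0.89), which leaves room for sizeable changes. The values of *Hspa1a* in KD WT, 98.5, 113, 34.3, 3.83 and 12.3 CPM in libraries 0001, 0002, 0003, 0019 and 0022, lay within the Control WT range of 17.8 to 147 CPM in 0001 to 0003 and below it in 0019 and 0022.

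The comparison of KD *APP/PS1* with Control *APP/PS1* asks what knockdown does in the amyloid model. 0 of the 10 genes passed, as did 0% of all genes with edgeR, and 5 of the 10 had an unadjusted p under 0.05, against 20.6% of all genes. These 5, *Hspa1a*, *Hspa5*, *Hsp90ab1*, *Hsph1* and *Bag3*, all had lower values in KD. DESeq2 called 580 genes, 1 of them among the 10, *Hsp90ab1*. The median log2 fold change of the 10 genes was -0.45, beside 0.01 over all genes, and 9 of the 10 were negative.

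*Hsph1* was at 15.5, 18.2 and 27.1 CPM in the lowest, median and highest Control *APP/PS1* library. In KD *APP/PS1* it was at 13.7 CPM in 0004 and at 13.8, 8.64, 4.49 and 9.26 CPM in 0018, 0020, 0021 and 0023, all below the Control range. Its log2 fold change was -0.92 ± 0.31 (adjusted p = 0.205). It was the only 1 of the 10 without overlap between these groups, beside 0.821% of all genes.

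*Hsp90ab1*, between 451 and 696 CPM in Control *APP/PS1*, was at 557 CPM in KD *APP/PS1* 0004 and at 441, 357, 256 and 340 CPM in 0018, 0020, 0021 and 0023. Library 0004 lay within the Control range and the other four below it. *Hspa5*, between 568.4 and 741 CPM in Control *APP/PS1*, was at 635 CPM in 0004 and at 554, 532, 355 and 398 CPM in the other four, with the same split. *Hspa1a* was at 14.2, 51.7 and 131 CPM in Control *APP/PS1*, at 40.3 CPM in 0004, and at 8.48, 7.44, 24.6 and 10.5 CPM in 0018, 0020, 0021 and 0023. Library 0004 is the only *APP/PS1* library of the run 1 to 4.

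The study also analysed these groups without library 0004. In the edgeR fit made here without it, 4 of the 10 genes fell. They were *Hsp90ab1* (log2 fold change -0.69 ± 0.17, adjusted p = 0.0202), *Hsph1* (-1.07 ± 0.33, 0.0324), *Hspa5* (-0.48 ± 0.16, 0.0444) and *Bag3* (-0.99 ± 0.34, 0.0461), by edgeR's quasi-likelihood test. 0 rose, and over the 18700 genes tested 9.07% were called lower and 7.34% higher. The inducible genes *Hspa1a* (-2.07 ± 0.79, adjusted p = 0.0721) and *Hspa1b* (-2.16 ± 0.86, 0.0850) had larger fold changes with larger errors and did not pass with edgeR. With DESeq2 both passed (-2.01, adjusted p = 0.0361, and -2.11, 0.0377), so that 6 of the 10 were called, as were 4432 of all 18700 genes. The study, which used DESeq2, also reported *Hspa1a* and *Hspa1b* as significantly lower in KD in its analysis without 0004. Fitting only these 2 groups, both passed as well (adjusted p = 0.0258 and 0.0240). The groups did not overlap for 3 of the 10, *Hspa5*, *Hsp90ab1* and *Hsph1*, and for 13.8% of all genes. *Hspa8* had a log2 fold change of -0.09 ± 0.12, and *Hsp90aa1* (-0.01 ± 0.44) and *Dnajb1* (-0.11 ± 0.32) were near 0 as well.

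Without 0004 every KD *APP/PS1* library belongs to the run 18 to 23, and every one of them held choroid plexus transcripts that the Control *APP/PS1* libraries lacked (90.2 to 494 against 1.30 to 5.41 CPM, summed over 10 markers, 8 of 10 called higher). Of 10 microglia markers 2 were called higher and 1 lower, of 6 border macrophage markers 2 higher, and 1 lymphocyte and 1 oligodendrocyte marker higher. The part of these in the results was not tested. With the run as a covariate, estimated from the KD WT libraries, the log2 fold changes of the 4 genes were 0.01 for *Hsp90ab1*, 0.36 for *Hsph1*, 0.26 for *Hspa5* and 0.18 for *Bag3*, with adjusted p-values from 0.921 to 1.00, so knockdown and run could not be told apart in these genes. All 4 calls were also lost with 0010 kept (adjusted p from 0.125 to 0.212), where 0 genes were called in all, and 0 of the 10 passed when Control *APP/PS1* 0005, KD *APP/PS1* 0021 or KD *APP/PS1* 0023 was left out as well, again with 0 genes called in all. By contrast 1 of the 10 passed without Control *APP/PS1* 0007, where 1525 of 18614 genes were called, and 2 passed without 0016 or 0017, where 2743 of 18598 and 2727 of 18610 were.

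Whether knockdown acts differently in the 2 genotypes was tested as an interaction in the same fit. 0 of the 10 genes and 0% of all genes passed, and 3 of the 10, *Bag3*, *Hsph1* and *Hsp90ab1*, had an unadjusted p under 0.05, against 9.08% of all genes. DESeq2 called 25 genes, 0 of them among the 10. The interaction was -1.28 ± 0.44 for *Bag3*, -1.22 ± 0.43 for *Hsph1* and -0.58 ± 0.24 for *Hsp90ab1* on the log2 scale, each with an adjusted p of 0.544. For *Hspa8* it was -0.22 ± 0.16, with a 95% interval from -0.54 to 0.10.

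The runs of library numbers were compared within the KD mice. The 6 libraries 18 to 23 were set against the 4 libraries 1 to 4, with genotype as a covariate, over 17060 genes. 5 of the 10 were lower in 18 to 23, against 8.91% of all genes, and 0 were higher, against 9.93%. They were both inducible HSP70 genes, the ER HSP70 gene *Hspa5*, the constitutive HSP90 gene *Hsp90ab1* and the exchange factor gene *Hsph1*.

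*Hspa1a* was at 98.5, 113, 34.3 and 40.3 CPM in libraries 0001 to 0004. In libraries 0018 to 0023 it was at 8.48, 3.83, 7.44, 24.6, 12.3 and 10.5 CPM, in the order of their numbers. All 6 lay below all 4. The log2 fold change was -2.71 ± 0.56 (adjusted p = 0.00992). *Hspa1b* was at 45.8, 58.1, 13.8 and 25.9 CPM in 0001 to 0004 and at 4.24, 1.66, 5.40, 10.1, 2.16 and 6.97 CPM in 0018 to 0023, and also did not overlap. Its log2 fold change was -3.48 ± 0.57 (0.00820), which is a level of 0.0895 of that in libraries 1 to 4. Without KD *APP/PS1* 0004 it was -4.31 and still passed.

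*Hspa5* was at 698, 722, 713 and 635 CPM in 0001 to 0004 and at 554, 455, 532, 355, 399 and 398 CPM in 0018 to 0023. The first 4 values were within 1.14-fold of each other and all above the rest. The log2 fold change was -0.61 ± 0.15 (adjusted p = 0.0164). *Hsp90ab1* fell by 0.67 ± 0.15 on the log2 scale (0.0119) and *Hsph1* by 1.09 ± 0.34 (0.0399), both with overlap between the runs. The runs did not overlap for 3 of the 10 genes and for 19.1% of all genes.

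The other 5 genes did not pass. *Bag3* had a log2 fold change of -0.89 ± 0.32 (adjusted p = 0.0698) and *Hsp90aa1*, at 531, 539, 198 and 164 CPM in 0001 to 0004 and between 97.2 and 333 CPM in 0018 to 0023, of -1.23 ± 0.54 (0.128). *Dnajb1* (-0.22 ± 0.30), *Hspa8* (0.14 ± 0.13) and *Hspb1* (0.42 ± 0.45) had adjusted p-values from 0.518 to 0.686. *Bag3* passed without KD *APP/PS1* 0018 (0.0404), without KD *APP/PS1* 0020 (0.0370) and with DESeq2 (0.0245). *Hsp90aa1* passed without KD *APP/PS1* 0021 (-1.41, 0.0331) and was at -1.95 without KD *APP/PS1* 0004 and -0.83 without KD WT 0019, neither of which passed. A fit of KD WT alone, libraries 0019 and 0022 against 0001 to 0003, used part of the same libraries and is not separate evidence. In it all 5 genes were lower in 0019 and 0022, with adjusted p-values from 0.0164 to 0.0341. *Bag3* (-1.20, 0.0353) and *Hsp90aa1* (-2.01, 0.0296) passed too. In that fit 1463 of 14922 genes were called in all.

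In this comparison 9 of 10 choroid plexus markers were higher in libraries 18 to 23 than in 1 to 4 (90.2 to 801 against 2.30 to 51.8 CPM in sum), and 4 of 10 microglia markers were called, 2 in each direction. Of 6 border macrophage markers 2 were higher and 1 lower, and 1 granulocyte and 1 oligodendrocyte marker were higher and 1 endothelial marker lower. The part of these in the results was not tested. Among the Control WT libraries, the 2 rich in choroid plexus transcripts had the lowest and the highest *Hspa1a* level of their group, 17.8 CPM in 0012 and 147 CPM in 0015. Within groups over the 22 libraries, r with the choroid plexus markers was -0.395 for *Hspa1a*, -0.448 for *Hspa1b*, -0.452 for *Hspa5* and -0.438 for *Hsp90ab1*. For the other genes it ran from -0.423 for *Hsp90aa1* to 0.362 for *Hspb1*. Leaving out KD WT 0022 lowered the number of calls among the 10 from 5 to 0, with 120 genes called in all. The log2 fold changes of *Hspa1a* (-2.97, adjusted p = 0.0691) and *Hspa1b* (-3.17, 0.0577) were then of similar size. Leaving out KD *APP/PS1* 0004 left *Hspa1a* and *Hspa1b*. The share of all genes called in that fit is not given here, so these 2 calls are not read as particular to the 10. The call of *Hsph1* was lost without any 1 of 0001, 0002, 0003, 0004, 0019, 0020, 0022 or 0023, with adjusted p-values from 0.0503 to 0.175.

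**Figure D3:**
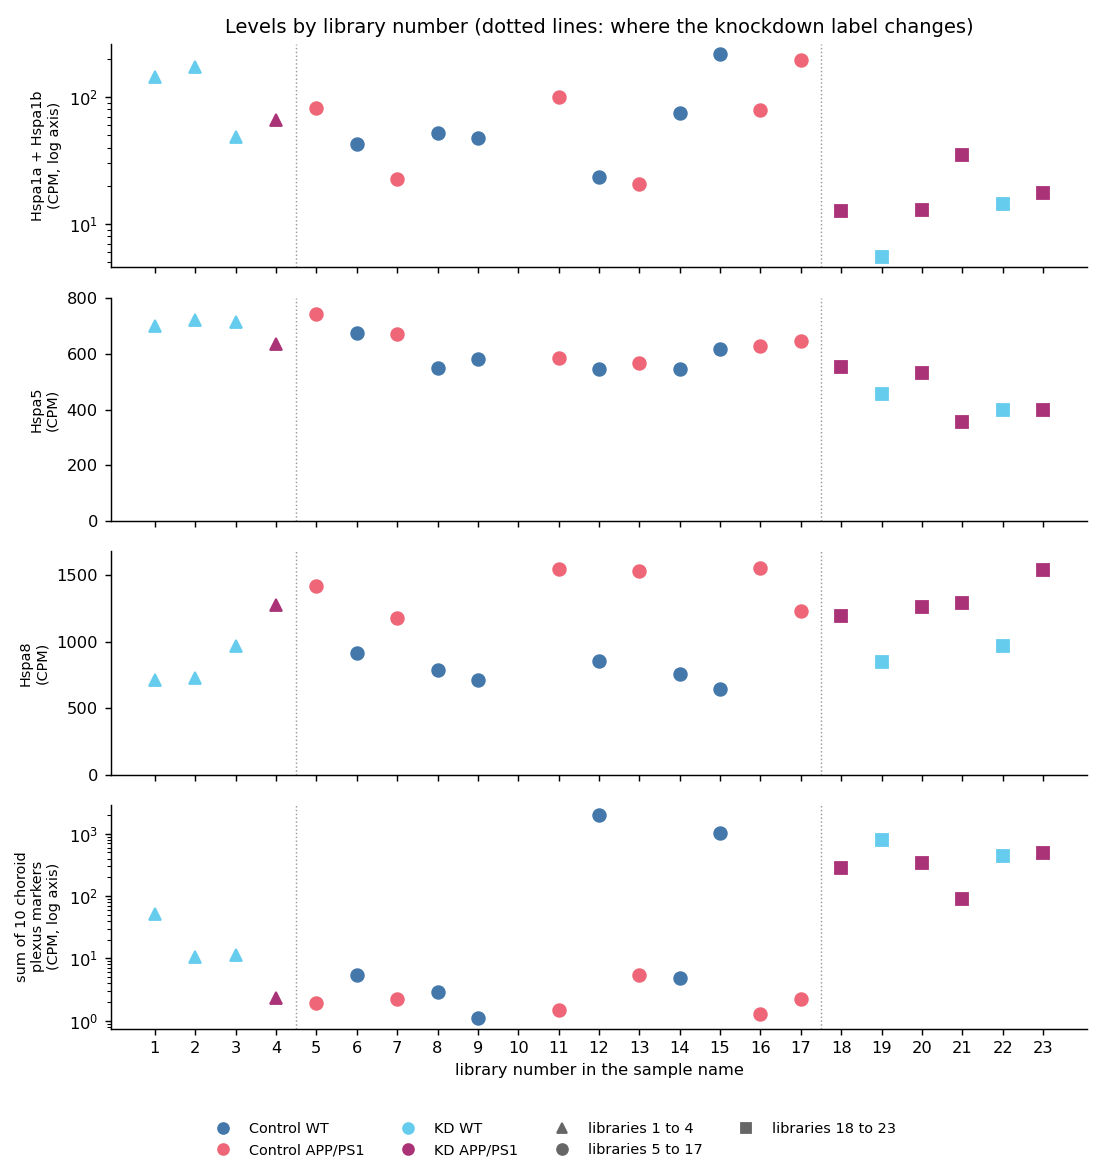
The horizontal axis is the library number in the sample name, and the vertical axes give *Hspa1a* and *Hspa1b* summed, *Hspa5*, *Hspa8* and the sum of 10 choroid plexus markers in CPM (the first and last on log axes), with colours for groups and dotted lines where KD and Control meet. The *Hspa1* sum is 5.49 to 34.7 CPM in libraries 18 to 23 and 48.1 to 171 CPM in 1 to 4, *Hspa5* is at most 554 CPM in all of 18 to 23, and *Hspa8* separates by genotype in every run.

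The factors that govern the heat shock response were measured in 4 of 6 listed genes. *Hsf1*, which encodes the main activator, was at 15.0 ± 1.84 CPM (n = 6) in Control *APP/PS1* and 13.2 ± 2.08 (n = 6) in Control WT. It was at 10.5 ± 4.66 (n = 5) in KD *APP/PS1* and 12.0 ± 2.69 (n = 5) in KD WT. It passed in 0 of the 7 comparisons. *Hsbp1*, which encodes a protein that binds and restrains HSF1, was higher in KD libraries 18 to 23 than in 1 to 4 (log2 fold change 0.55 ± 0.15, adjusted p = 0.0205) and in KD *APP/PS1* without 0004 than in Control *APP/PS1* (0.42 ± 0.14, 0.0438). The latter call was lost in the fits without 0005, 0021 or 0023 and with 0010 kept, and it was 1 of 4 regulators against 7.34% of all genes called higher. *Hsf2*, a second heat shock factor, was lower in KD libraries 18 to 23 (-0.89 ± 0.28, 0.0432), so that 1 of the 4 was higher and 1 lower between the runs, against 9.93% and 8.91% of all genes.

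Other chaperone families were read from lists, of which some share clients or partners with the 10 genes. Of 8 genes of the chaperonin TRiC, the ring that folds actin and tubulin, 5 were higher and 0 lower in Control *APP/PS1* than in Control WT, against 5.99% and 4.48% of all genes, and 3 did not pass, with a median log2 fold change of 0.36 beside -0.02 over all genes. *Cct2* (0.52 ± 0.10, adjusted p = 0.00106) and *Cct5* (0.42 ± 0.09, 0.00401) were among them. In KD *APP/PS1* against KD WT 6 of 8 were higher and 0 lower, against 9.77% and 6.41% of all genes, with *Tcp1* at 0.75 ± 0.12 (0.000142). Of 12 mitochondrial chaperone genes, 3 were higher and 0 lower in Control *APP/PS1*, led by *Hspd1*, the gene of HSP60 (0.54 ± 0.09, 0.000124), and 5 were higher and 1 lower in KD *APP/PS1* against KD WT.

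Of 29 genes of ER chaperones and the unfolded protein response, 5 were higher and 2 lower in Control *APP/PS1* than in Control WT, against 5.99% and 4.48% of all genes. *Sdf2l1*, which encodes a BiP cofactor (1.02 ± 0.21, adjusted p = 0.00166), and *Calr*, the gene of calreticulin (0.41 ± 0.10, 0.00662), rose, while *Herpud1*, of ER-associated degradation, fell (-0.64 ± 0.16, 0.0101). *Hspa5* in the same comparison had a log2 fold change of 0.13 ± 0.15. Between the runs of the KD mice 6 of the 29 were lower and 3 higher in libraries 18 to 23, against 8.91% and 9.93% of all genes, so the share that was higher was near that of all genes. *Hsp90b1*, the gene of the ER HSP90 GRP94, fell together with *Hspa5* (-0.98 ± 0.21, 0.0108), while *Sdf2l1* (0.87 ± 0.18, 0.00991) and *Manf* (0.61 ± 0.15, 0.0144) rose.

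Of 37 other cytosolic chaperone and co-chaperone genes, 2 were higher and 1 lower in Control *APP/PS1* than in Control WT, a share no larger than that of all genes (5.99% and 4.48%). *Bag1* was among them (0.61 ± 0.12, adjusted p = 0.00116). Without 0004, 6 were lower and 2 higher in KD *APP/PS1* than in Control *APP/PS1*, against 9.07% and 7.34% of all genes. *Hspa4*, which encodes an HSP110 relative (-0.88 ± 0.21), *Stip1*, which links HSP70 to HSP90 (-0.90 ± 0.23), and *St13*, an HSP70 cochaperone (-0.48 ± 0.12), fell, each with an adjusted p of 0.0202. Like those of the 10 genes, these calls were lost in the fits without 0005, 0021 or 0023 and with 0010 kept, in which 0 genes were called. Between the runs 3 were lower and 3 higher, again no more than the share of all genes (8.91% and 9.93%), and *Fkbp5*, an HSP90 cochaperone gene that glucocorticoids switch on, fell by 1.28 ± 0.21 on the log2 scale (0.00848).

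Within groups, 8 of the 10 genes fell into 2 sets by how they varied over all libraries. Each library's deviation from its group mean in log2 CPM was correlated between genes, over 22 libraries. The genes of a library share its isolation, its depth and its scaling. *Hspa1a*, *Hspa1b*, *Hsp90aa1* and *Dnajb1* had r from 0.69 to 0.96 with each other. *Hspa5*, *Hsp90ab1*, *Hsph1* and *Bag3* had r from 0.66 to 0.88. Between the sets r ran from -0.23 for *Dnajb1* with *Hsp90ab1* to 0.57 for *Hspa1b* with *Hspa5*. *Hspa8* belonged to neither set, with r from -0.54 to 0.12 with the 9 others. In the first set *Hspa1a* and *Hsp90aa1* were at 0.77 in the 12 Control and 0.88 in the 10 KD libraries. The sets were not apart for every gene in the KD libraries, where *Hspa1b* was at 0.70 with *Hspa5*, 0.67 with *Hsp90ab1* and 0.66 with *Hsph1*, and at 0.60 with *Dnajb1* of its own set. In the second set *Hspa5* and *Hsp90ab1* were at 0.14 in the Control and 0.95 in the KD libraries, and the other 5 pairs at 0.355 to 0.537 and 0.779 to 0.939. The KD libraries hold both runs. *Hspb1* had r from -0.33 to 0.43 with the others.

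**Figure D4:**
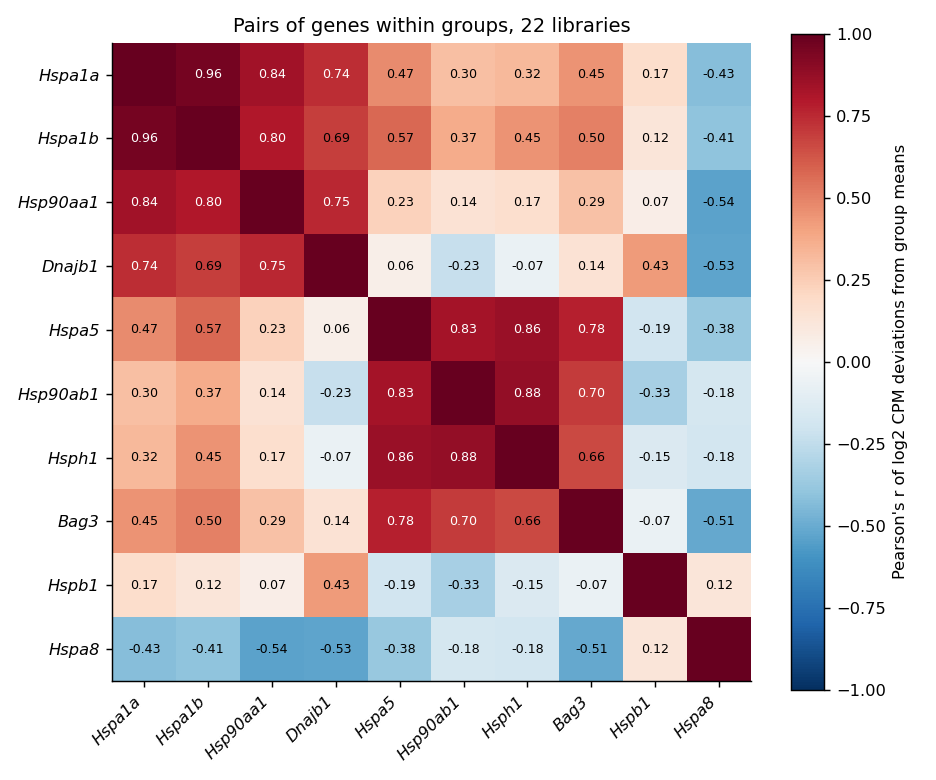
Each cell gives Pearson's r, on a colour scale from -1 to 1, between the deviations of 2 genes from their group means in log2 CPM over 22 libraries. *Hspa1a*, *Hspa1b*, *Hsp90aa1* and *Dnajb1* form 1 block, *Hspa5*, *Hsp90ab1*, *Hsph1* and *Bag3* another, and *Hspa8* is at 0.12 or below with all others.

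Immediate early genes, transcription factor and signalling genes that cells switch on soon after a stimulus, varied with the first set. The mean log2 CPM of 26 such genes had r = 0.88 with *Hspa1a*, 0.86 with *Hspa1b*, 0.82 with *Hsp90aa1* and 0.69 with *Dnajb1* over the 22 libraries. With *Hspa5* r was 0.33, with *Hsp90ab1* 0.24, with *Hsph1* 0.20 and with *Hspa8* -0.10. For deviations from the group means r was 0.89 for *Hspa1a* and *Hsp90aa1*, 0.84 for *Hspa1b* and 0.77 for *Dnajb1*, and 0.24 for *Hspa5*. Between the KD runs 9 of the 26 genes were lower in libraries 18 to 23 and 0 higher, against 8.91% and 9.93% of all genes, among them *Egr1* (-1.10 ± 0.14, adjusted p = 0.00351), *Jun* (-1.22 ± 0.20, 0.00820) and *Fos* (-0.65 ± 0.13, 0.00954). In Control *APP/PS1* against Control WT 0 of 26 passed and 3 had an unadjusted p under 0.05, as did 4558 of all 18759 genes. Of the 26, 3 were higher and 0 lower in KD *APP/PS1* than in KD WT, against 9.77% and 6.41% of all genes. In KD *APP/PS1* against Control *APP/PS1* 0 of 26 passed, with a median log2 fold change of -0.53 beside 0.01 over all genes. Without 0004, 2 of 26 were lower and 0 higher, against 9.07% and 7.34% of all genes, with a median of -0.64. These 2 calls too were lost in the fits in which 0 genes were called. Their part in the differences of *Hspa1a* was not tested.

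The genes whose level was most like the mean of *Hspa1a* and *Hspa1b*, by Pearson's r of log2 CPM over 22 libraries among 11878 other genes with a mean of at least 1 CPM, were *Fosb* (0.94), *Kdm6b* (0.93), *Zc3h12a* (0.92), *Nlrp3* and *Ets2* (both at 0.90 or above). *Fosb* encodes a FOS family factor and belongs to the 26 immediate early genes, *Kdm6b* a histone demethylase, *Zc3h12a* an RNase that limits cytokine mRNAs, *Nlrp3* an inflammasome sensor and *Ets2* a transcription factor. Most like *Hspa5* were *Ddx21* (0.93), *Gapvd1*, *Hnrnpul2*, *Ripk1* and *Dhx38*, with r from 0.92 to 0.93. None of the 5 is a gene of the ER chaperone list.

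**Figure D5:**
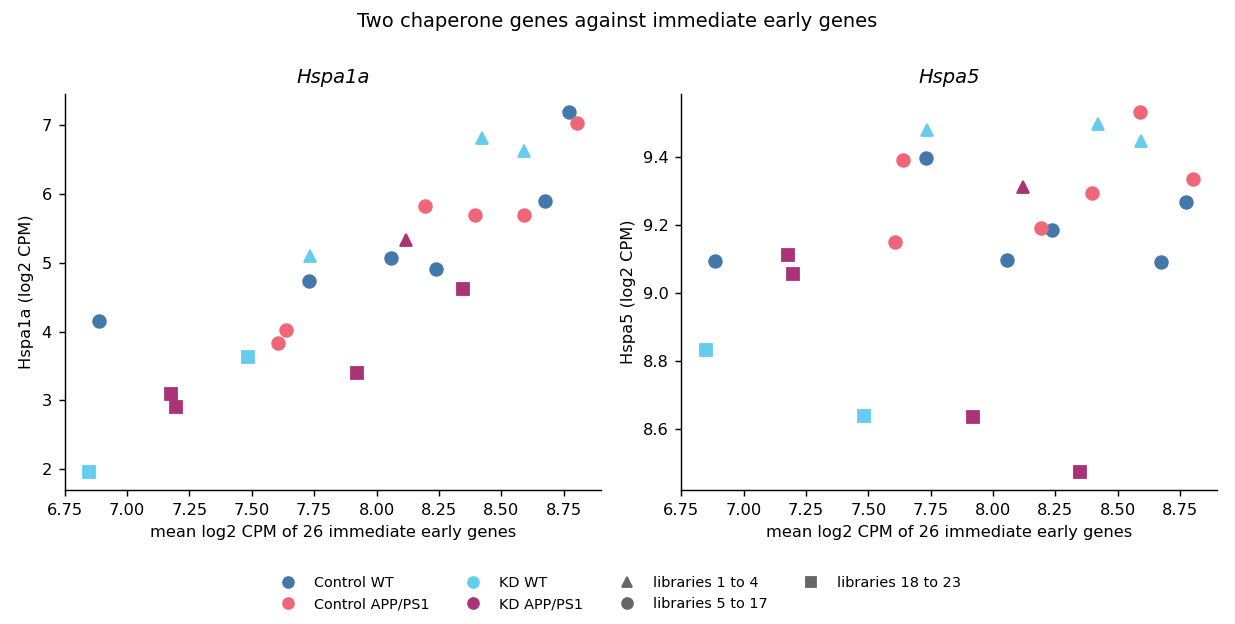
Each point is 1 of 22 libraries, with the mean log2 CPM of 26 immediate early genes on the horizontal axis and the log2 CPM of *Hspa1a* (left) or *Hspa5* (right) on the vertical axis, colours for groups and shapes for runs of library numbers. *Hspa1a* rises with the immediate early genes (r = 0.88), while the low *Hspa5* values of libraries 18 to 23 occur at low and high values of them (r = 0.33).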

How the data were processed

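Per the labels and the methods of the study, the authors made poly(A) libraries, read them as paired ends of 150 bases, trimmed them with Trim Galore 0.6.7, aligned them to mm39 with STAR and deposited its read counts per gene for 23 libraries. A second deposited table holds the same counts divided by 1 size factor per sample and was not used. The deposited counts were tested with edgeR 4.0.16 (quasi-likelihood test, TMM scaling, R 4.3.3) in a fit of 22 libraries in 4 groups, over genes with 5 or more counts in 3 or more libraries, with Benjamini-Hochberg adjustment and a threshold of 0.05. Control APP/PS1 0010 was left out as the library taken to be the outlier of the study. The comparison of KD libraries 18 to 23 with 1 to 4 used the 10 KD libraries alone, and the 5 comparisons of groups share samples. Alternatives were DESeq2 1.42.0, its size factors, other count minimums, *Hspa1a* and *Hspa1b* added, 0010 kept, the run as a covariate and each library left out. Within and between groups no 2 libraries were duplicates (highest r 0.974 over 253 pairs). The genes and lists were chosen with earlier results of these data known. Of each other list at most the 4 genes with the smallest p in a comparison are named. The labels name both hippocampi as the source of each library and the study describes its libraries as biological replicates, and p-values measure only the spread between these libraries. The scripts were tested on simulated data.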

Additional observations from a re-analysis of the deposited data

Results flagged for a closer look

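Of 40 groups of gene values examined for a single sample far from its group, 9 held one, each on the high side. The limit used gives about 1 in 20 by chance for independent, normally distributed values. These were CPM without a log scale, and genes such as *Hspa1a* and *Hspa1b* vary together. The 9 are therefore not an excess over a known chance rate. Control WT 0015 stood above its group for 4 genes, with *Hspa1a* at 147 CPM (next highest 59.4), *Hspa1b* at 69.8 (18.6), *Dnajb1* at 279 (144) and *Hspb1* at 11.8 (4.91). It is also 1 of the 2 Control libraries rich in choroid plexus transcripts. Control *APP/PS1* 0017 stood above its group for *Hspa1a* at 131 CPM (56.6) and *Dnajb1* at 217 (100.4). Control *APP/PS1* 0005 was high for *Hsph1* at 27.1 CPM (18.9), KD *APP/PS1* 0004 for *Hspa1b* at 25.9 (10.1) and KD *APP/PS1* 0023 for *Hspa8* at 1539 (1291).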

How the results depend on the processing

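With an absolute log2 fold change above 1 required as well, the genes called among the 10 numbered 0 in Control APP/PS1 against Control WT (918 of all 18759 genes), 1 in KD APP/PS1 against Control APP/PS1 without 0004 (607 of 18700), 1 in KD APP/PS1 against KD WT (1105 of 18759) and 3 between the KD runs (1109 of 17060). DESeq2 called 1 in KD APP/PS1 against Control APP/PS1. Its size factors in edgeR left 2 of 4 without 0004, where *Hspa5* (adjusted p = 0.0552) and *Bag3* (0.0504) were lost, and keeping 0010 left 0. The run as a covariate left 1 in KD APP/PS1 against KD WT and 0 in KD APP/PS1 against Control APP/PS1 without 0004. Without Control WT 0012 and 0015, 1 was left in Control APP/PS1 against Control WT, and fitting only the groups compared left 1 in KD APP/PS1 against KD WT but added *Hspa1a* and *Hspa1b* in KD APP/PS1 against Control APP/PS1 without 0004. The causes were not tested. Leaving out 1 library gave 1 to 3 calls in Control APP/PS1 against Control WT, 0 to 0 in KD WT against Control WT, 0 to 4 in KD APP/PS1 against Control APP/PS1, 0 to 4 in the same without 0004, 1 to 3 in KD APP/PS1 against KD WT, 0 to 0 in the interaction and 0 to 6 between the KD runs.

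Values near 0 turned sign. In Control APP/PS1 against Control WT, *Hspa1a* was -0.001 with DESeq2, -9e-04 with its size factors, -0.0099 with at least 10 counts in every sample and -0.15 with 0010 kept. In KD WT against Control WT, *Hspa1b* was -0.0094, -0.0077 and -0.0083 in the first 3 of these, and *Hspa1a* 0.0055 with *Hspa1b* added. *Hsp90aa1* in KD APP/PS1 against Control APP/PS1 was 0.0114, 0.0113, 0.0056 and 0.0405 in these 4, and without 0004 0.0577, 0.0576, 0.0267 and 0.0333. Fitting only the groups compared, *Hsp90ab1* in KD APP/PS1 against KD WT was 0.0081, and in KD WT alone *Hspb1* between the runs was -0.18. Without 0012 and 0015, KD WT against Control WT gave 0.48 for *Hspa1a*, 0.10 for *Dnajb1* and 0.45 for *Hspb1*.

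With the run as a covariate more values turned. In KD WT against Control WT *Hspa1a* was 0.43. In KD APP/PS1 against Control APP/PS1 *Hspa1a* was 0.49, *Hspa1b* 1.11, *Hspa5* 0.12, *Hsp90aa1* 1.05 and *Dnajb1* 0.0073, and without 0004 they were 1.27, 2.19, 0.26, 1.99 and 0.59, with *Hsp90ab1* 0.0071, *Hsph1* 0.36 and *Bag3* 0.18. In KD APP/PS1 against KD WT *Hspa1a* was 0.0915, *Hspa1b* 0.98, *Hspa5* 0.0106, *Hsp90aa1* 0.11 and *Hsp90ab1* 0.26. The interaction was 0.06 for *Hspa1a*, 0.66 for *Hspa1b*, 0.48 for *Hsp90aa1* and 0.0383 for *Dnajb1*.

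With 1 library left out, KD WT against Control WT ran from -0.49 to 0.64 for *Hspa1a*, -0.59 to 0.72 for *Hspa1b*, -0.0477 to 0.13 for *Hspa5*, -0.0255 to 0.51 for *Hsp90aa1*, -0.0376 to 0.15 for *Hsp90ab1*, -0.29 to 0.21 for *Dnajb1* and -0.25 to 0.42 for *Hspb1*. Control APP/PS1 against Control WT ran from -0.46 to 0.68 for *Hspa1a*, -0.0574 to 1.02 for *Hspa1b* and -0.066 to 0.24 for *Bag3*. KD APP/PS1 against Control APP/PS1 ran from -0.41 to 0.0946 for *Hsp90aa1* and -0.36 to 0.10 for *Dnajb1*, and without 0004 from -0.49 to 0.18 and -0.28 to 0.20. *Hsp90ab1* in KD APP/PS1 against KD WT ran from -0.19 to 0.0942, the interaction of *Dnajb1* from -0.40 to 0.22, and between the runs *Dnajb1* from -0.65 to 0.01 and *Hspb1* from -0.11 to 0.71. The study describes its controls as littermates, but the sample labels used here name no litter, so no paired analysis was made.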

Other observations

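Library 0010, labelled Control *APP/PS1* and left out above, was below the range of its group for 7 of the 10 genes when scaled with the other 22, with *Hspa8* at 1126 CPM, *Hspa5* at 357 CPM, *Hsp90ab1* at 249 CPM and *Hspa1a* at 9.31 CPM. It was within that range for *Hspa1b*, *Dnajb1* and *Hspb1*. The share of all genes below that range was not counted, so 7 of 10 is not read as a trait of these genes.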
